A study of Mus musculus with 6 samples.

Results

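The histone genes of pancreatic and splenic regulatory T (Treg) cells were examined with 47 of the 24922 probe sets of the array. A probe set is the group of probes summarised into 1 value. The 47 were those whose every annotated gene symbol belonged to the linker (H1) or core (H2A, H2B, H3, H4) histone families. They carried 48 different symbols in 35 different combinations, since 31 probe sets named 1 gene and 16 named several. By class, 40 were replication-dependent histones, 5 were forms known from germ cells (H1f6, H1f7, H1f8, H2ac1 and H2bc1), and 2 were replacement variants (H1f10 and H3f3a). The study sorted Treg cells by green fluorescence from NOD mice, a strain with spontaneous autoimmune diabetes. The carriers of the Foxp3-ires-gfp reporter in both groups were females aged 10 weeks, still prediabetic, with the background label NOD NRB_SFB+. The groups were 3 arrays of Treg cells from pancreas and 3 from spleen, so they differed by organ alone as far as the labels say. The labels do not say whether each array came from its own mouse or a pool, so a p-value here reflects how far these samples scatter, and that scatter may be technical.

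Replication-dependent histone genes lie in clusters of small genes without introns, and are transcribed as cells copy their DNA. Their mRNAs end in a stem-loop in place of a poly(A) tail, and new nucleosomes are built from their products behind the replication fork. Replacement variants such as H3.3 and H2A.Z are made from ordinary polyadenylated mRNAs through the whole cell cycle and in resting cells. Linker H1 proteins bind the DNA that enters and leaves the nucleosome. The reverse transcription used here (Ambion WT Expression Kit) does not depend on a poly(A) tail, so both kinds of transcript can be measured. Because a sorted population is measured in bulk, a different share of dividing cells and a different amount of histone RNA per cell cannot be told apart.

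The median intensity was between 82.0 and 92.0 on the 6 arrays, with an interquartile range of 2.23 to 3.07 on the log2 scale. The background level was a log2 intensity of 5.99, set from 1208 probe sets for olfactory and vomeronasal receptors, and 36 of the 47 histone probe sets had a mean above it. Foxp3, the defining Treg gene, had a log2 intensity of 11.48 ± 0.16 in pancreas and of 11.52 ± 0.32 in spleen (SD, n = 3 each). All 7 Treg markers were above background. Precision is set by having 3 arrays a group.

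Most replication-dependent histone probe sets, in each of the 5 families, had the higher mean in pancreatic Treg cells, and the linker histone gene H1f2 had it in splenic Treg cells. Of the 40 replication-dependent probe sets, 36 had the higher mean in pancreas and 4 in spleen. The median log2 fold change, pancreas against spleen, was 0.80 over the 40, beside 0.0085 over all 24922 probe sets. On 31 of the 40 the 3 pancreas arrays all lay above the 3 spleen arrays, and on 2 all lay below. Among all probe sets, 4.98% had no overlap in the first direction and 5.54% in the second. A single histone probe set, H1f1, passed the test over all probe sets (limma with Benjamini-Hochberg adjustment), and it was higher in pancreas, beside 0.305% of all probe sets in either direction (0.253% higher in pancreas and 0.0522% higher in spleen). At an unadjusted limma p under 0.05, 31 of the 47 histone probe sets were higher in pancreas and 2 in spleen, beside 3.26% and 3.35% of all probe sets. The 40 are not 40 separate measurements, since 10 of them name the same 12 H3 genes and 4 the same 11 H4 genes, and sequences of these copies are near-identical. Over the 24 that name 1 gene the median was 0.52, and with equal gene lists averaged into 1 entry it was 0.60.

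**Figure D1:**
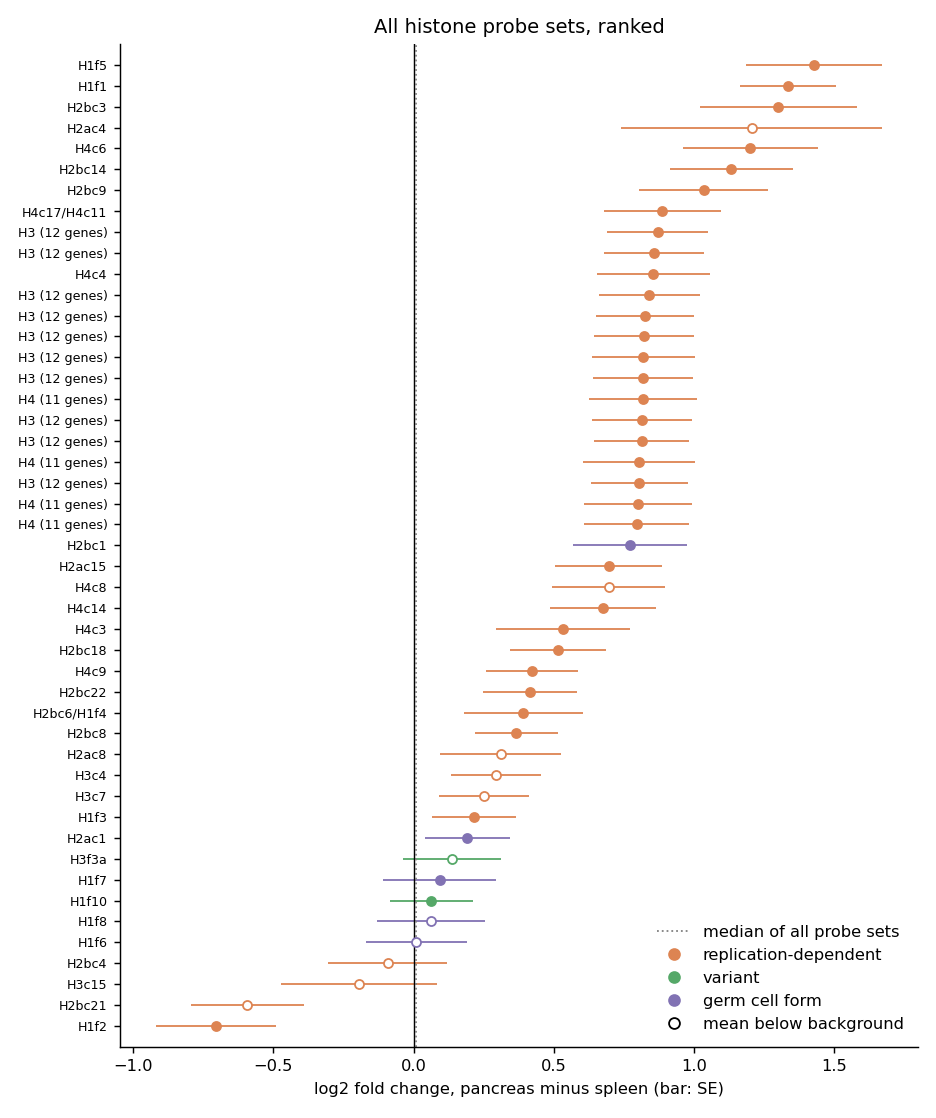
Each point is 1 of the 47 histone probe sets, placed by its log2 fold change (pancreas minus spleen, bars: SE) and ranked, with open points for a mean below background. Replication-dependent probe sets run from -0.70 (H1f2) to 1.43 (H1f5), with 36 of 40 above 0, and the variants and 4 of the 5 germ cell forms lie between 0.01 and 0.19.

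The linker histones of the replication-dependent class went apart. H1f1, which encodes the linker histone H1.1, was at log2 intensities of 9.27, 9.30 and 9.11 on pancreas arrays 1 to 3 and at 7.66, 8.12 and 7.89 on spleen arrays 1 to 3. The lowest pancreas array was 0.99 above the highest spleen array. H1f1 rose 2.52-fold in pancreas (log2 fold change 1.34 ± 0.17 SE, limma adjusted p = 0.0239). This call held without pancreas array 3 (adjusted p = 0.0119) and ended without each of the other 5 arrays, with an adjusted p of up to 0.110. Centring the arrays on their medians ended it as well (limma adjusted p = 0.0747), as did scaling them too (0.0613) and setting values under background to it (0.226).

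H1f5, the gene of linker histone H1.5, was at 9.77, 9.31 and 9.18 in pancreas and at 7.53, 8.14 and 8.30 in spleen. Its groups did not overlap either, but its log2 fold change of 1.43 ± 0.24 (SE) missed the threshold (limma adjusted p = 0.0638). H1f3, the gene of H1.3, was close to background, at 6.11 ± 0.11 in pancreas and 5.89 ± 0.10 in spleen (SD, n = 3 each), with all 3 spleen arrays below it. A probe set shared by H1f4 and the H2B gene H2bc6 had overlapping groups, at 8.80, 8.46 and 8.51 in pancreas and at 7.78, 8.47 and 8.34 in spleen.

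H1f2 had the opposite order. This gene encodes linker histone H1.2, which is known to be present in resting as well as dividing cells. It was at 8.33, 7.69 and 8.36 on the pancreas arrays and at 8.71, 8.76 and 9.01 on the spleen arrays. Every pancreas array was below every spleen array, by at least 0.35. The log2 fold change was -0.70 ± 0.21 (SE), with a 95% interval of -1.19 to -0.22, and did not pass (limma adjusted p = 0.376). Its mean stayed lower in pancreas in each of the 15 other fits, with a log2 fold change between -1.09 and -0.48. No other replication-dependent probe set above background had a lower mean in pancreas, in any of these fits that held it. That statement depends on the filter, which takes the mean over all 6 arrays. H1f3 and the probe set for H4c17 and H4c11 passed it with 0 spleen arrays above background. H2bc21, with a spleen mean of 6.04 and a log2 fold change of -0.59, did not pass it. Of the 8 replication-dependent probe sets below background, 3 had the lower mean in pancreas. H1f1 minus H1f2 was 0.94, 1.62 and 0.75 in pancreas and -1.05, -0.64 and -1.12 in spleen, on the log2 scale. This pair was chosen after its values were seen, so these differences are a description with no test.

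The promoters of these genes are shown because these H1 genes lie on the same chromosome and had opposite orders. Of the 48 histone genes, 43 had a RefSeq promoter window of 300 bases, from 250 before to 50 after the start (GRCm38.p6), and 35 of the 43 were on chromosome 13. H2bc21, H2bc4, H3c1, H3c7 and H4c14 had none. The motifs searched, on both strands, were TATAAA (the TATA box), CCAAT (bound by NF-Y), AAACACA (the AC box described for H1 promoters) and ATTTGCAT (the octamer described for H2B promoters, bound by Oct1). No motif contains another, and matches are in capitals below, 5′ to 3′ on the gene's own strand. The windows are H1f1 at chr13:23763418-23763717 (plus strand), H1f5 at chr13:21780576-21780875 (minus strand), H1f2 at chr13:23738557-23738856 (plus strand), and H2bc14, an H2B gene with a higher mean in pancreas, at chr13:21721794-21722093 (plus strand).
H1f1: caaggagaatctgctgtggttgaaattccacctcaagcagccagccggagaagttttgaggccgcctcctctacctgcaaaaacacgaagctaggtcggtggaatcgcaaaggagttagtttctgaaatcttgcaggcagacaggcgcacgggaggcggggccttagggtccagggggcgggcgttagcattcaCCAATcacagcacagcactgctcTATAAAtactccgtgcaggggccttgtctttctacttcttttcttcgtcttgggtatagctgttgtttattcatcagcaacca
H1f5: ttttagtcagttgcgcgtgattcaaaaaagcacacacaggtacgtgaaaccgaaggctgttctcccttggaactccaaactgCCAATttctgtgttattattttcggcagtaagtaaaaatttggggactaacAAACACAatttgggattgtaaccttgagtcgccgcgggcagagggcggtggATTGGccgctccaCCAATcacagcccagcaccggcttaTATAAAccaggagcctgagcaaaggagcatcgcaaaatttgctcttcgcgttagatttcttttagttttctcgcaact
H1f2: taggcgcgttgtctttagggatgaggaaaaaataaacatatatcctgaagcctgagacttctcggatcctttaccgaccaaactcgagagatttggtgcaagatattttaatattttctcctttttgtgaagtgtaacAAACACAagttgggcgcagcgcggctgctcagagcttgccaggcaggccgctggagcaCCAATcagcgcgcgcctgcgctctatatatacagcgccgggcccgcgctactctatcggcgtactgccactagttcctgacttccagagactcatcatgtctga
H2bc14: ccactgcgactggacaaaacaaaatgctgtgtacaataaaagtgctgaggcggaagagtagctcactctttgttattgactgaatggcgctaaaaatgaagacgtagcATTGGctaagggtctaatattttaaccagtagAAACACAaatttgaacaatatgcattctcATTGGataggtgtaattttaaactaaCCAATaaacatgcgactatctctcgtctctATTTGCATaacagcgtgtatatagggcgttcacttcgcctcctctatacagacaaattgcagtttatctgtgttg
All 5 replication-dependent H1 windows held CCAAT. In the forward copy nearest the start its first base was at -56 in H1f1, -53 in H1f5 and -54 in H1f2. AAACACA was found in 4 of the 5, among them H1f5 at -117 and H1f2 at -112, and was not in the H1f1 window. TATAAA was also in 4 of the 5, at -33 in H1f1 and -28 in H1f5, and these letters were not in the H1f2 window. That window holds the similar letters tatatata between CCAAT and the start, so the exact search does not show that H1f2 lacks a TATA box. Over the 36 replication-dependent windows TATAAA was in 61.1% and CCAAT in 77.8%, beside 13.6% and 37.4% of all 32851 windows in the table. These shares count a match anywhere in the window on either strand, such as TATAAA at -250 in H4c6. CCAAT was in all H1, H2A, H2B and H3 windows but in only 3 of 11 H4 windows (27.3%). AAACACA was in 16.7% of the 36 and 7.18% of all windows. ATTTGCAT was in 4 of 7 H2B windows, H2bc14 at -25 among them, and in 1.74% of all windows. It was also in 2 of 3 H2A windows and in 2 of 5 windows of germ cell forms. A match is a description of letters and not evidence of binding.

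The H2B genes showed the same order as most of the class. H2bc14, a gene of this nucleosome core protein, was at 11.46, 11.75 and 11.95 in pancreas and at 10.32, 10.99 and 10.45 in spleen. H2bc3 was at 10.77, 11.16 and 11.17 against 9.21, 10.35 and 9.64. H2bc9 was at 10.87, 11.33 and 11.44 against 9.89, 10.57 and 10.08. On all 3 the groups were separate, and within each group pancreas array 1 and spleen array 1 were the lowest. Their log2 fold changes were 1.13 ± 0.22, 1.30 ± 0.28 and 1.03 ± 0.23 (SE), and none passed (limma adjusted p = 0.101, 0.137 and 0.149).

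Of the 8 H2B probe sets, 6 were above background, and all 6 had separate groups with the higher mean in pancreas, from 0.37 (H2bc8) to 1.30 on the log2 scale. Among all probe sets, 4.98% had separate groups in that direction. H2bc18 was at 0.52 and H2bc22 at 0.42. H2bc4 was below background on all 6 arrays. H2bc21 ran the other way, at 5.65, 5.25 and 5.45 in pancreas and at 5.72, 6.35 and 6.06 in spleen. It is mentioned here because of its values. All its pancreas arrays and 1 spleen array were below background, so its size is known only as a bound (at least 1.04-fold higher in spleen, limma adjusted p = 0.478).

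Among the H2A genes only H2ac15 was above background, at 12.46, 12.42 and 12.60 in pancreas and at 11.77, 12.13 and 11.49 in spleen. Its groups did not overlap, and its log2 fold change was 0.70 ± 0.19 (SE, limma adjusted p = 0.278). H2ac4 had a large fitted difference (1.21 ± 0.46 SE), but 5 of its 6 values were below background and its groups overlapped. H2ac8 was below background throughout.

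The H3 signal came from 10 probe sets that each name the same 12 genes, so it is a sum over copies that this array cannot separate. These genes encode H3.1 and H3.2, the forms deposited during replication. The first of the 10 was at 13.12, 12.83 and 12.86 in pancreas and at 11.80, 12.27 and 12.13 in spleen. The other 9 followed it closely: over all 10, values lay between 12.97 and 13.15 on pancreas array 1 and between 11.75 and 11.92 on spleen array 1. All 10 had separate groups, with log2 fold changes of 0.80 to 0.87, beside 4.98% of all probe sets separate in that direction. In limma 0 of the 10 passed the test (smallest adjusted p = 0.123). All 10 had an unadjusted limma p under 0.05, beside 3.26% of all probe sets higher in pancreas. These 10 count as 1 observation on H3. The 3 probe sets for 1 H3 gene each (H3c4, H3c7 and H3c15) had means below background.

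**Figure D2:**
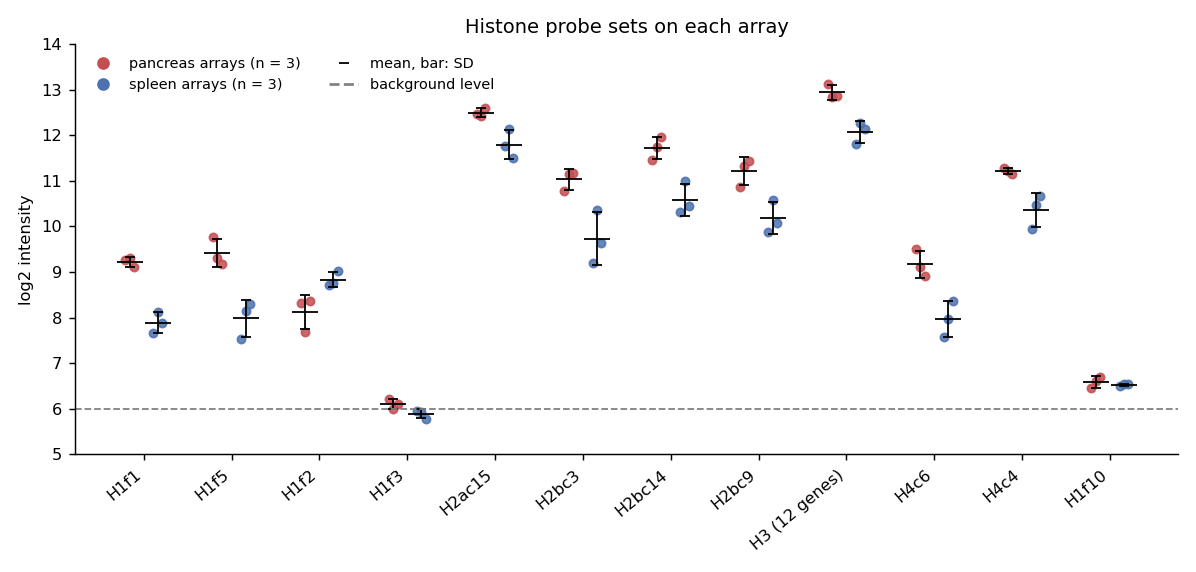
The log2 intensity of 12 histone probe sets is plotted for each of the 3 pancreas (red) and 3 spleen (blue) arrays, with the mean and SD and the background level of 5.99 as a dashed line. Pancreas arrays lie above spleen arrays for every gene drawn except H1f2, where the order is turned, and H1f10, where they overlap, and H1f3 sits at background.

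The H4 genes, whose copies encode the same small core protein, gave 11 probe sets, all with the higher mean in pancreas. H4c6 was at 9.50, 9.11 and 8.91 in pancreas and at 7.57, 7.97 and 8.37 in spleen. Its log2 fold change of 1.20 ± 0.24 (SE) did not pass (limma adjusted p = 0.111). H4c4 was at 11.28, 11.21 and 11.16 against 9.95, 10.47 and 10.66 (0.85 ± 0.20 SE, limma adjusted p = 0.172). For both genes each pancreas array was above each spleen array. H4c14 was at 10.93, 10.89 and 10.82 against 9.86, 10.25 and 10.50.

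The 4 probe sets naming the same 11 H4 genes had log2 fold changes of 0.80 to 0.82. Their values lay between 11.88 and 12.37 in pancreas and between 11.02 and 11.59 in spleen, so they did not overlap. A probe set for H4c17 and H4c11 was at 6.57, 6.56 and 6.49 in pancreas and below background on all 3 spleen arrays. It was at least 1.47-fold apart (limma adjusted p = 0.171). H4c9 was at 0.42, with separate groups. H4c3 was at 0.53 on the log2 scale, with overlapping groups. H4c8 was at least 1.13-fold higher in pancreas, with 2 of 3 pancreas arrays and 0 of 3 spleen arrays above background.

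Another 8 probe sets fell outside the definition because they add another symbol to a long list of H2A or H2B genes. Those for H2B name nearly the same genes as each other, and so do those for H2A. Their lists include genes with a probe set described above, such as H2bc14 and H2ac15. Both H2A lists also name the variant gene H2ax and the H3 gene H3c4. The 8 are therefore not separate observations, and not all of their genes are replication-dependent H2A or H2B genes. The 6 for H2B had log2 fold changes of 0.46 to 0.59 and the 2 for H2A of 0.52 and 0.65. Groups were separate on all 8 with pancreas higher, beside 4.98% of all probe sets. The unadjusted limma p was under 0.05 on all 8, beside 3.26% of all probe sets higher in pancreas. None of the 8 passed the limma test after adjustment (smallest adjusted p = 0.240).

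The replacement variants gave smaller values. H1f10, the gene of linker histone H1.10, was at 6.46, 6.61 and 6.71 in pancreas and at 6.50, 6.54 and 6.54 in spleen, with overlapping groups and a log2 fold change of 0.06 (95% interval -0.27 to 0.40). The H3f3a probe set, with 4 of 6 values below background, was at 0.14 (-0.26 to 0.54). The median over these 2 was 0.10, so it lay 0.70 below that of the replication-dependent class. This class difference is a description and has no test, since members are not replicates. Per array, the median deviation of the replication-dependent class minus that of the variants was 0.56, 0.35 and 0.10 in pancreas and -0.65, -0.08 and -0.14 in spleen.

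Because 2 variants are few, 14 probe sets for variants under other symbols were added after the annotation was seen. H3.3, the main replacement form of H3, is encoded by H3f3a and H3f3b. The 4 probe sets that name H3f3a with the predicted gene Gm12657 had log2 fold changes of -0.0053 to 0.13, and their groups overlapped on all 4. One of them was at 10.66, 10.54 and 10.71 in pancreas and at 10.52, 10.55 and 10.65 in spleen, with a 95% interval of the difference from -0.27 to 0.40. The 2 probe sets that name H3f3b with Gm6485 were both at 0.32, with upper limits of 0.71 and 0.76. On 1 of them all pancreas arrays were above all spleen arrays, by 0.10, and on the other the groups overlapped.

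Macroh2a1, which encodes a large H2A variant of silent chromatin, was at 0.17 (95% interval -0.28 to 0.61). H2az2, 1 of the genes of H2A.Z, was at 0.13 (-0.28 to 0.53) and H2aj at 0.15 (-0.18 to 0.48). Macroh2a2 and Macroh2a3 were below background. Larger values were found for H2az1 and H2ax. H2az1, the other H2A.Z gene, was at 11.08, 10.78 and 10.81 in pancreas and at 10.03, 10.38 and 10.58 in spleen on the first of its 2 probe sets. Its groups were separate on both, with log2 fold changes of 0.56 and 0.54 (limma adjusted p = 0.471 and 0.592). H2ax, whose protein is phosphorylated at DNA breaks and whose transcript can end in the stem-loop of replication-dependent histones, lay between 7.92 and 8.17 in pancreas and was at 7.36, 7.92 and 7.32 in spleen (0.50, limma adjusted p = 0.639). Its lowest pancreas array was 0.0058 above its highest spleen array. Of the 14 probe sets, 0 passed the limma test. At an unadjusted limma p under 0.05, 3 were higher in pancreas, those of H2az1 and H2ax, beside 3.26% of all probe sets. The median of the 14 was 0.14, and over all 16 variant probe sets it was 0.13.

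**Figure D3:**
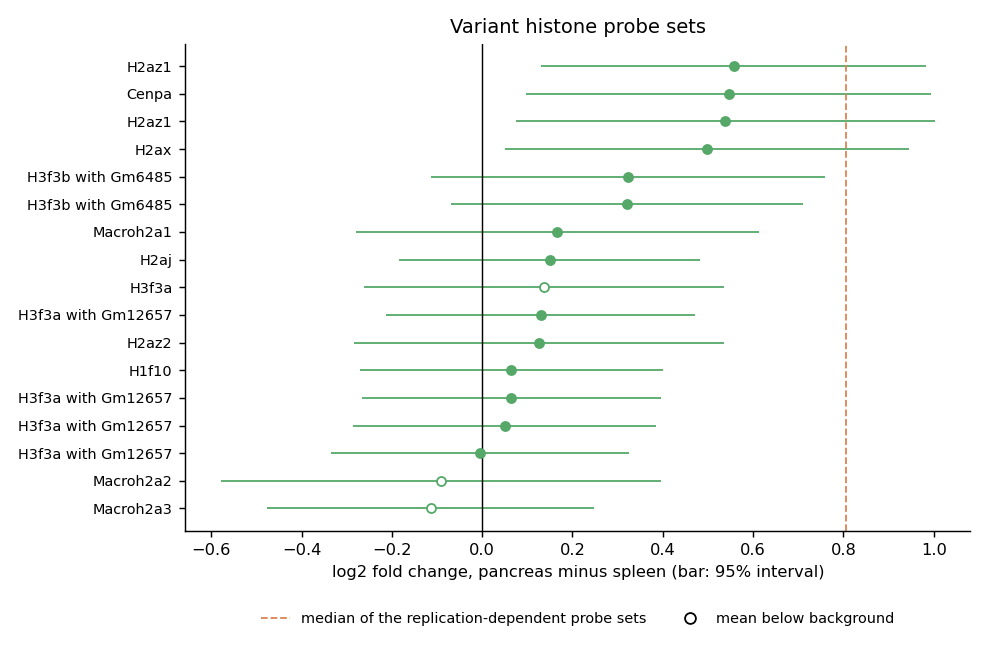
Log2 fold changes (pancreas minus spleen, bars: 95% intervals from limma) are drawn for the 2 variant probe sets of the definition, the 14 under other symbols and Cenpa, with the median of the replication-dependent class (0.80) as a dashed line. Those of H2az1, Cenpa and H2ax lie between 0.50 and 0.56 and the others between -0.11 and 0.32.

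Among the 5 germ cell forms, H1f6 and H1f8 were below background and H1f7 and H2ac1 had overlapping groups (log2 fold changes 0.09 and 0.19). H2bc1, the testis H2B gene, had separate groups, at 6.86, 7.15 and 7.35 in pancreas and at 6.18, 6.67 and 6.19 in spleen (0.77 ± 0.20 SE, limma adjusted p = 0.245). Its sequence resembles that of the other H2B genes, so their probe sets may share signal. Cenpa, which encodes the centromeric H3 variant, was at 9.38, 9.12 and 8.74 against 8.47, 8.71 and 8.43 (0.55, limma adjusted p = 0.550), and its groups were separate by 0.03.

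Genes that supply, process and deposit histones were then compared. Of 14 measured chaperones that serve replication, 11 had the higher mean in pancreas, 1 rose, 0 fell and the median was 0.21, where 0.253% of all probe sets rose, 0.0522% fell and the median was 0.0085. The gene that rose was Asf1b, which encodes a carrier of new H3 and H4. It was at 9.60, 9.64 and 9.62 in pancreas and at 8.28, 8.71 and 7.97 in spleen, 1.30 ± 0.20 (SE) higher on the log2 scale (limma adjusted p = 0.0494). The groups were 0.89 apart. This call was close to the threshold and remained without pancreas array 3 or without spleen array 2, and ended without any of the other 4 arrays (largest limma adjusted p = 0.198). It also ended with quantile normalization (limma adjusted p = 0.0545), with arrays centred on their medians (0.10) or also scaled (0.178), and with values under background set to it (0.364).

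Chaf1a and Chaf1b, subunits of the assembly factor CAF-1, were at 0.60 ± 0.18 and 0.49 ± 0.21 (SE, limma adjusted p = 0.344 and 0.759). Nasp, a carrier of H1 and H3, was at 0.50 ± 0.16 (adjusted p = 0.429 in limma). Groups were separate for Chaf1a and Nasp and overlapped for Chaf1b, whose lowest pancreas array was at 7.66 and highest spleen array at 7.74.

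The 13 factors of histone mRNA synthesis and processing had a median of 0.04 with 0 past the limma test. At an unadjusted limma p under 0.05 there was 1, higher in pancreas, beside 3.26% of all probe sets. That gene was Slbp, which encodes the protein that binds the histone stem-loop and itself accumulates with DNA replication. It was at 8.72, 8.42 and 8.43 in pancreas and at 7.75, 8.13 and 8.18 in spleen, with separate groups (0.50 ± 0.18 SE, limma adjusted p = 0.538). Npat, which encodes an activator of histone gene transcription, was at -0.0084 (95% interval -0.40 to 0.38). Cpsf3, the gene of the nuclease that cuts histone pre-mRNA, was at -0.17, and the genes of the U7 particle proteins Lsm10 and Lsm11 at -0.24 and -0.14.

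The 13 measured chaperones and remodellers of variant histones had a median of -0.06, with 0 past the limma test. At an unadjusted limma p under 0.05 there was 1 in each direction, beside 3.26% of all probe sets higher in pancreas and 3.35% in spleen. Ino80, a remodeller gene, was at 8.63, 8.38 and 8.39 in pancreas and at 8.89, 9.02 and 8.87 in spleen (-0.46 ± 0.15 SE, limma adjusted p = 0.460). All its pancreas values were below all its spleen values. Hira and Daxx, which encode the H3.3 chaperones, were at -0.06 (95% interval -0.46 to 0.34) and 0.0099 (-0.59 to 0.61). Ubn2, Ep400 and Srcap were at -0.35, -0.27 and -0.22. Oip5, which encodes a factor of centromeric loading and was below background on all 6 arrays, gave the other value with a small unadjusted p.

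Genes of DNA replication showed the same order as the replication-dependent histones. Of 34 measured S phase genes, 33 had the higher mean in pancreas, 1 rose and 0 fell, and the median was 0.72. Among all probe sets 0.253% rose, 0.0522% fell and the median was 0.0085. At an unadjusted limma p under 0.05, 27 were higher in pancreas and 0 in spleen, beside 3.26% and 3.35% of all probe sets. Rrm2, the gene of a ribonucleotide reductase subunit, was at 9.38, 9.41 and 8.77 in pancreas and at 7.34, 7.97 and 7.75 in spleen (1.50 ± 0.23 SE, limma adjusted p = 0.0498). That call remained without pancreas array 3 and ended without any of the other 5 (largest limma adjusted p = 0.204). It also ended with arrays centred on their medians (limma adjusted p = 0.141) and with values under background set to it (0.406). The polymerase gene Pole was at 1.16, the helicase gene Mcm6 at 1.06 and the licensing gene Cdc6 at 0.81 on the same scale (limma adjusted p = 0.0513, 0.0817 and 0.101).

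By array, the median deviation of the 40 replication-dependent probe sets from their own means over 6 arrays was 0.54, 0.30 and 0.32 on pancreas arrays 1 to 3 and -0.63, -0.19 and -0.20 on spleen arrays 1 to 3. That of the S phase genes was 0.44, 0.48 and 0.17 against -0.48, -0.27 and -0.30. Both groups of genes were lowest on spleen array 1, while they did not share the order of the pancreas arrays. The Treg markers were at 0.03, -0.03 and -0.09 against -0.17, 0.19 and 0.01, which overlapped. Without spleen array 1 the median fold change of the replication-dependent class was 0.68, and without pancreas array 1 it was 0.70.

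**Figure D4:**
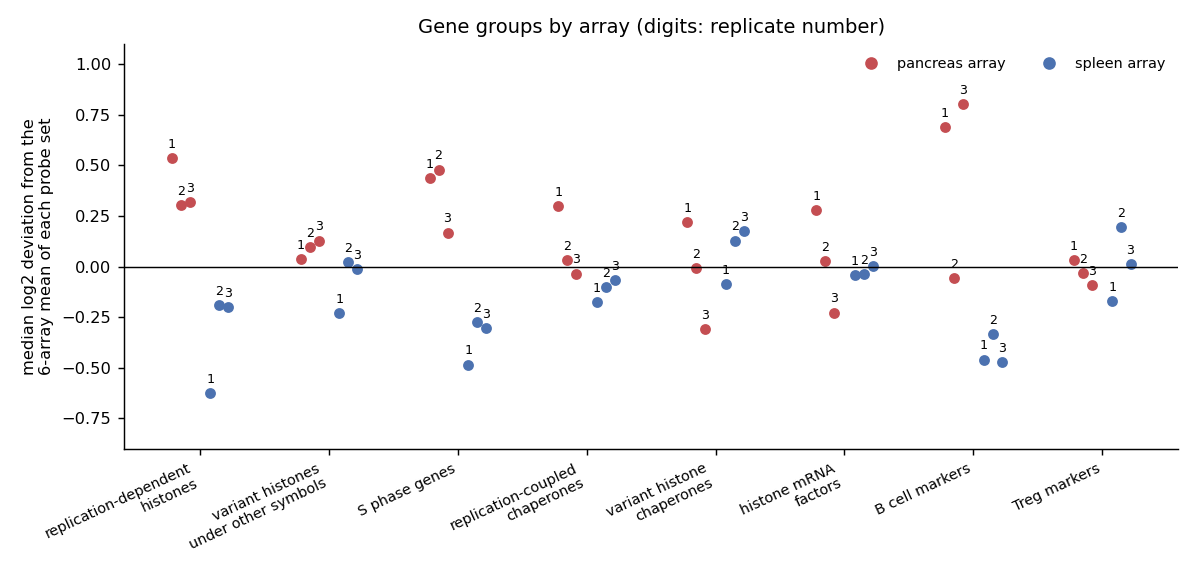
For 8 groups of genes, the median log2 deviation of the members from their own 6-array mean is drawn for each pancreas (red) and spleen (blue) array, with the replicate number above each point. Replication-dependent histones and S phase genes are above 0 on all pancreas arrays and below 0 on all spleen arrays, and B cell markers on all 3 pancreas arrays are above the spleen arrays, with pancreas array 2 at -0.06 the lowest of them.

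Markers of other cells also differed between the arrays. Over all probe sets, 0.253% passed the test higher in pancreas and 3.26% had an unadjusted limma p under 0.05 in that direction. All 12 measured acinar markers had the higher mean in pancreas (median 2.76, 7 past the test, summed intensity 12540 to 25651 against 1110 to 2609), led by Ctrb1 at 4.57. Their median deviation was 1.34, 2.38 and 0.71 on pancreas arrays 1 to 3 and -1.53, -1.85 and -0.80 on spleen arrays 1 to 3. All 8 B cell markers did too (median 0.78, 0 past the limma test and 8 with an unadjusted p under 0.05, summed intensity 880 to 1902 against 612 to 716), led by Ms4a1 at 2.08. Dividing B cells also express replication-dependent histones. The B cell median deviation was 0.69, -0.06 and 0.80 on pancreas arrays 1 to 3 and -0.46, -0.33 and -0.47 on spleen arrays 1 to 3. On 7 of the 8 markers the groups were separate with pancreas higher, beside 4.98% of all probe sets. Of the B cell markers Cr2 and Fcer2a had means below background.

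The plasma cell markers (6, median 0.25) included Jchain at 3.31 (limma adjusted p = 0.00782), the 1 that passed. The summed intensity of the 6 was 1452 to 2013 against 1068 to 1582. Xbp1, the brightest of them, was at 10.15 in pancreas and 10.04 in spleen, a difference of 0.11. Sdc1 and Tnfrsf17 had means below background. Among the 11 macrophage and dendritic cell markers (median 0.02, summed intensity 942 to 968 against 694 to 765), Lyz2 passed at 1.90, and Csf1r, Itgax, Adgre1, C1qa, C1qc and Flt3 were below background. The 4 measured erythroid markers (median -0.02, 158 to 245 against 187 to 229) had 1 above background and 0 past the limma test or at an unadjusted p under 0.05. The 8 CD8 T and NK cell markers (median 0.08, 801 to 954 against 780 to 893) had 4 above background and 0 past the limma test, with 1 at an unadjusted p under 0.05, and Ncr1, the one with the largest difference, was at 0.86 and below background. The part of acinar, B and these other cells in the histone values was not tested.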

How the data were processed

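Total RNA of sorted Treg cells was hybridised to Affymetrix Mouse Gene 1.0 ST arrays after amplification with the Ambion WT Expression Kit, per the labels. The authors deposited 1 linear intensity per probe set and array. The submitters' processing notes list RMA as well as Affymetrix Power Tools. Versions, genome build and normalization between arrays are not given in the sources used here. Values were taken to log2 with no pseudocount or filter.

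Probe sets were named from the platform annotation, in which 21425 of 24922 have 1 symbol, 1399 several and 2098 none. Each probe set was 1 row, and limma 3.58.1 (R 4.3.3) was fitted to all rows and all 6 arrays by tissue, two-sided, with Benjamini-Hochberg adjustment over 24922 probe sets and a threshold of 0.05. The prior had 4.67 and the residuals 4 degrees of freedom. Lists used, for each gene, the 1-gene probe set with the highest mean. Background was the 95th percentile of the receptor probe sets' means, and where the lower tissue was below it on all arrays the fold is a bound against it. Some list genes are not analysed here, and each count is over the members measured.

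Members and lists were chosen with earlier results of these data known. Named by rule were histone probe sets past the test, up to 3 more per family above background with the smallest p, variants above background, and up to 4 genes of each other list. H2bc21 and the further histone members were named beside these to account for the members. The fit was tested on simulated data. Alternatives covered normalization, background, members, variance model, array weights, the replicate number and each array left out. Plots used Python 3.11.15 and matplotlib 3.10.9.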

Additional observations from a re-analysis of the deposited data

How the results depend on the processing

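The median of the replication-dependent class stayed above that of the variants in every setting run. It moved by more than the spread between replicates with each array centred and scaled to 1 interquartile range (1.02, and 0.93 for the difference from the variants), with only probe sets naming 1 gene, in the fit or among members (0.52 and 0.42), with equal gene lists averaged, a setting added after seeing the data (0.60), and with array weights (0.54). With 1 array left out it ran from 0.68 to 0.86, that of the variants from 0.01 to 0.15 and the difference from 0.55 to 0.83.

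Calls were less stable. The main fit called 76 of all and 1 of the histone probe sets. These counts were 22 and 0 with arrays centred on their medians, 36 and 0 when also scaled, 112 and 3 with quantile normalization, 162 and 3 with only probe sets above background, 4 and 0 with values under background set to it, 111 and 2 with only probe sets naming 1 gene, and 127 and 13 with a trended and robust variance. Where limma called 0 histone probe sets, 28 to 33 of the 47 had an unadjusted p under 0.05 in either direction, beside 33 in the main fit. The share of all probe sets under that level is not given for those settings, so these counts have no background beside them. Array weights called 12006 and 39, but their estimate stopped before converging and gave pancreas array 2 a weight of 89.3 against 0.153 to 3.40 on the others, so these counts carry no information on stability. With 1 array left out, the counts ran from 27 to 150 and from 0 to 2, with 2 (H1f1 and H1f5) without pancreas array 3. As a replicate block, the numbers in the titles gave 26 and 0, and ended the calls of H1f1, Asf1b and Rrm2 (limma adjusted p = 0.117, 0.140 and 0.124). The deviations of same-numbered arrays from their tissue means had correlations of -0.61, 0.07 and -0.72. These cannot decide whether the numbers pair the arrays. Deviations from a mean of 3 arrays are not independent, and the unequal spread of the arrays enters them.

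Among the named genes, the sign turned for Npat with quantile normalization (0.028) and with centring and scaling (0.036), for Daxx with median centring (-0.0072) and for Lsm10 with array weights (0.0087). With 1 array left out, Npat ran from -0.16 to 0.086, Daxx from -0.17 to 0.30, Lsm10 from -0.51 to 0.10 and Hira from -0.20 to 0.071. The planned move of H2ax to the replication-dependent class was not run, because no member carries that symbol. The number of arrays, and signal close to background for 11 of the 47 histone probe sets, limit these values.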
